A study of Mus musculus with 16 samples.

Results

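The second step of the response to bortezomib, from 135 to 405 min of exposure, was measured in NIH3T3 cells, a mouse fibroblast line. Bortezomib blocks the proteasome, the protease that degrades ubiquitinated proteins. All 16 libraries of the series came from cells carrying a stable fusion of superfolder GFP with a destabilizing domain, and the study's methods state that stable lines were sorted for high GFP. The series holds 4 groups of 4 libraries: control cells at 0 min and cells harvested 45, 135 and 405 min into bortezomib exposure. The comparison here used 5 of these 16 libraries, replicates 1, 3 and 4 at 405 min and replicates 1 and 2 at 135 min. These were the libraries of the 2 times in which ribosomal protein genes took over 4% of the fragments assigned to genes, so their ribosomal protein share was the measure they were chosen by. The full set of 8 libraries, 4 at each time, served as a check. The dose of bortezomib and whether the ligand of the destabilizing domain was kept during exposure are not given in the sources used here. No vehicle libraries at matched times were analysed here, and nothing in the labels says that replicates came from separate cultures, so the tests measure the spread between these libraries only.

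When the proteasome is blocked, unfolded proteins build up in cytosol and nucleus and occupy chaperones. This frees the heat shock factor Hsf1, which drives genes for Hsp70, Hsp110 and Hsp40 chaperones. Kinases of the integrated stress response phosphorylate the initiation factor eIF2, which lowers translation in general while that of the transcription factor Atf4 goes up, and Atf4 then drives genes for amino acid synthesis, amino acid transport and tRNA charging. Other arms are led by Nrf2, which controls antioxidant genes, by Nfe2l1, which controls proteasome subunit genes, by p53, and by NF-kappaB. Cells also need the proteasome to leave mitosis, because the anaphase promoting complex marks cyclins for destruction.

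The 8 libraries differed in composition before any comparison of times. Ribosomal protein genes took 8.48% and 6.17% of fragments in replicates 1 and 2 at 135 min and 6.78%, 4.25% and 8.59% in replicates 1, 3 and 4 at 405 min. The last library inside the threshold was thus replicate 3 at 405 min, at 4.25%, and the nearest outside it were replicate 2 at 405 min, at 0.907%, and replicates 3 and 4 at 135 min, at 0.579% and 0.435%. Olfactory and vomeronasal receptor genes, which fibroblasts are not known to transcribe, took 0.364% and 1.42% in the compared 135 min libraries, 0.337%, 2.61% and 0.00671% in the compared 405 min libraries, and 4.81 to 5.12% in the 3 that were left out. Depth ran from 1385229 to 19930375 fragments in the compared libraries and from 570323 to 880609 in the others.

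**Figure D1:**
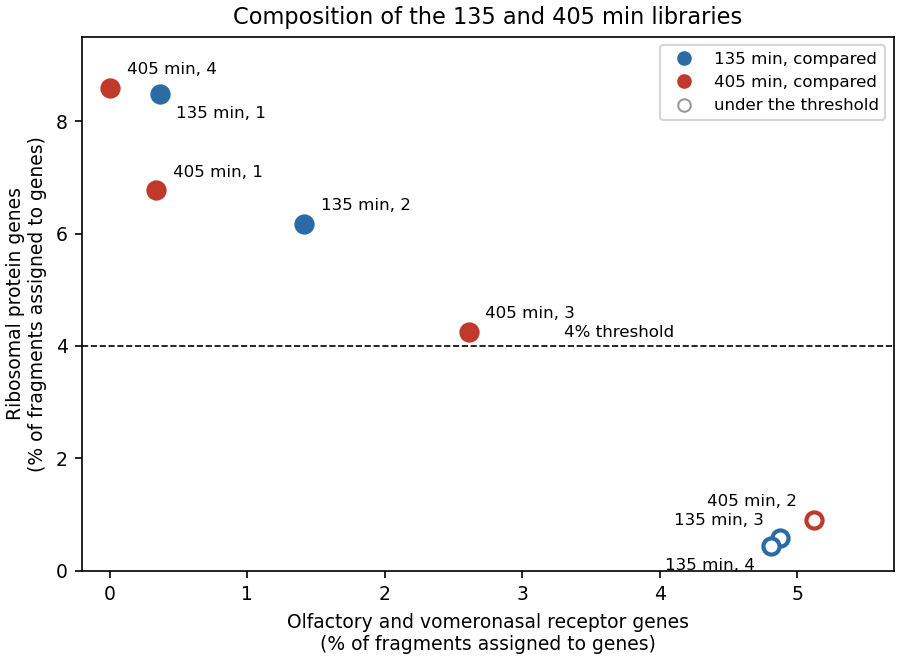
Share of fragments assigned to ribosomal protein genes (vertical axis, percent) against the share assigned to olfactory and vomeronasal receptor genes (horizontal axis, percent) in the 8 libraries at 135 min (blue) and 405 min (red), labelled by time and replicate. The dashed line is the 4% threshold, filled points are the 5 libraries compared, and replicate 3 at 405 min sits just above the line with a receptor share of 2.61%.

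Replicate 3 at 405 min stood apart from its group. Across the 9457 tested genes its log2 levels had a correlation of 0.555 with each of the other 2 libraries at 405 min, which correlated at 0.906 with each other, and of 0.676 and 0.775 with the 135 min libraries. Libraries of other times also resembled replicates 1 and 4 at 405 min. Replicate 1 at 45 min correlated with them at 0.863 and 0.946, and with replicate 2 at 45 min at 0.85. Replicate 2 at 135 min correlated with them at 0.813 and 0.833, and with replicate 1 at 135 min at 0.772. These correlations are across genes, which are not independent replicates, and the libraries differ in depth. Replicate 1 at 135 min was sparse: 741 of the tested genes had 1 to 3 fragments in it, against 3 in replicate 2 at 135 min and 4, 126 and 235 in replicates 1, 3 and 4 at 405 min. For the 3 markers and some of the lists, values are therefore also given without replicate 3 at 405 min. The fibroblast identity of the cells could be seen in their markers, since the summed level of 8 fibroblast genes was 12820.0 and 12510.0 CPM at 135 min and 17480.0, 3281 and 16950.0 CPM at 405 min, with none of the 8 at 0. CPM here is the usual depth-scaled count, computed from tested genes only after scaling between libraries with trimmed means of M-values (TMM). Of 16 markers of epithelium, leukocytes, endothelium, muscle and neurons only Krt14, Snap25 and Rbfox3 had a fragment in every compared library, and the summed level of all 16 was 53.3 and 134 CPM at 135 min and 32.7, 233 and 5.52 CPM at 405 min. Both lists put replicate 3 at 405 min apart from its group.

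Promoter sequences are shown for a pair of genes of each of 3 groups that the results turn on: chaperone genes, genes driven by Atf4 and mitotic genes. All are RefSeq promoters on GRCm38.p6, printed 5′ to 3′ on the strand of the gene, and each holds the 120 bases before the annotated start. In the chaperone genes, capitals mark a pair of inverted heat shock half-sites (GAANNTTC or TTCNNGAA) recognized by Hsf1. Hspa1a, which encodes an inducible Hsp70, lies at chr17:34972157-34972276 on the minus strand, and Hsph1, which encodes the Hsp110 that exchanges the nucleotide of Hsp70, at chr5:149636337-149636456 on the minus strand.
Hspa1a: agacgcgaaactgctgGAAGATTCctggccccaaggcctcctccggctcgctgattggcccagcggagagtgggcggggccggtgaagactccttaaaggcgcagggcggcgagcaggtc
Hsph1: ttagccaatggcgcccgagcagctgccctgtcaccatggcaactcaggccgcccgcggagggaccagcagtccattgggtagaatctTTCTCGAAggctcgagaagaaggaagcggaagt

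In the next pair, capitals mark TGATGNAA or its complement, the core of the composite element that Atf4 and a C/EBP protein bind together. Asns, which encodes asparagine synthetase, lies at chr6:7693210-7693329 on the minus strand, and Atf3, which encodes a transcription factor of the same pathway, at chr1:191183334-191183453 on the minus strand.
Asns: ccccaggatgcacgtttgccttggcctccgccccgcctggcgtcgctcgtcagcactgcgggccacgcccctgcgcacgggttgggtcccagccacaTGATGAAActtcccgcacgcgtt
Atf3: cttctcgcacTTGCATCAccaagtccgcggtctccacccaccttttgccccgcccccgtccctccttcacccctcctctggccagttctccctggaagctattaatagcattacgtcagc

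In the last pair, capitals mark CCAAT boxes, which the factor NF-Y binds, and TTTGAA, the core of the cell cycle homology region, each on either strand. Ube2c, which encodes the ubiquitin-conjugating enzyme of the anaphase promoting complex, lies at chr2:164769809-164769928 on the plus strand, and Cdc20, which encodes an activator of that complex, at chr4:118437344-118437463 on the minus strand.
Ube2c: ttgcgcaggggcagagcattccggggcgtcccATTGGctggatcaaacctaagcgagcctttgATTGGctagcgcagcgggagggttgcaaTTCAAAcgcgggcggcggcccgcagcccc
Cdc20: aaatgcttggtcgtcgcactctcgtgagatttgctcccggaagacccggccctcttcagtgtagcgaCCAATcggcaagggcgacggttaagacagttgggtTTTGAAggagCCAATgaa

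Over windows from 250 bases before to 50 after the start, which 7090 of the 9457 tested genes had, motifs were searched on both strands. GAANNTTC was found in 7.29% of all promoters and in 3 of the 8 available promoters of the Hsp70 and Hsp110 list (37.5%). TTCNNGAA was found in 8.24% of all promoters and in 1 of these 8 (12.5%). TGATGNAA was found in 2.57% of all promoters, in 7 of 20 of the integrated stress response (35%) and in 5 of 11 of the aminoacyl-tRNA synthetases (45.5%). CCAAT was found in 44% of all promoters and in 15 of 16 of the mitosis list (93.8%), and TTTGAA in 15.1% and in 12 of 16 (75%). These matches describe the promoters of the lists, whose members are known targets of such factors, and not their levels. Among genes whose 405 min libraries were all above both 135 min libraries, GAANNTTC and TTCNNGAA were each found in 7.97% and TGATGNAA in 3.39%. Among those with all 405 min libraries below, TTTGAA was found in 20.3% and CCAAT in 45.7%. Of these shares, that of TTTGAA lay farthest from its share in all promoters.

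The question asked of the 5 libraries was which genes went up or down between 135 and 405 min. With edgeR's quasi-likelihood test and Benjamini-Hochberg adjustment, no gene passed a threshold of 0.05 in either direction (0% of 9457 genes higher and 0% lower, smallest adjusted p 1). Without adjustment the same threshold was passed by 107 higher genes (1.13%) and 102 lower genes (1.08%). The spread between replicates was wide, with a biological coefficient of variation of 77.0%. All 3 libraries at 405 min lay above both libraries at 135 min in 657 genes (6.95%) and below both in 734 genes (7.76%), and this split was 482 against 982 genes with upper-quartile scaling. These 2 shares are the background against which each list below is read, and the median log2 fold change of all tested genes was 0.13.

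**Figure D2:**
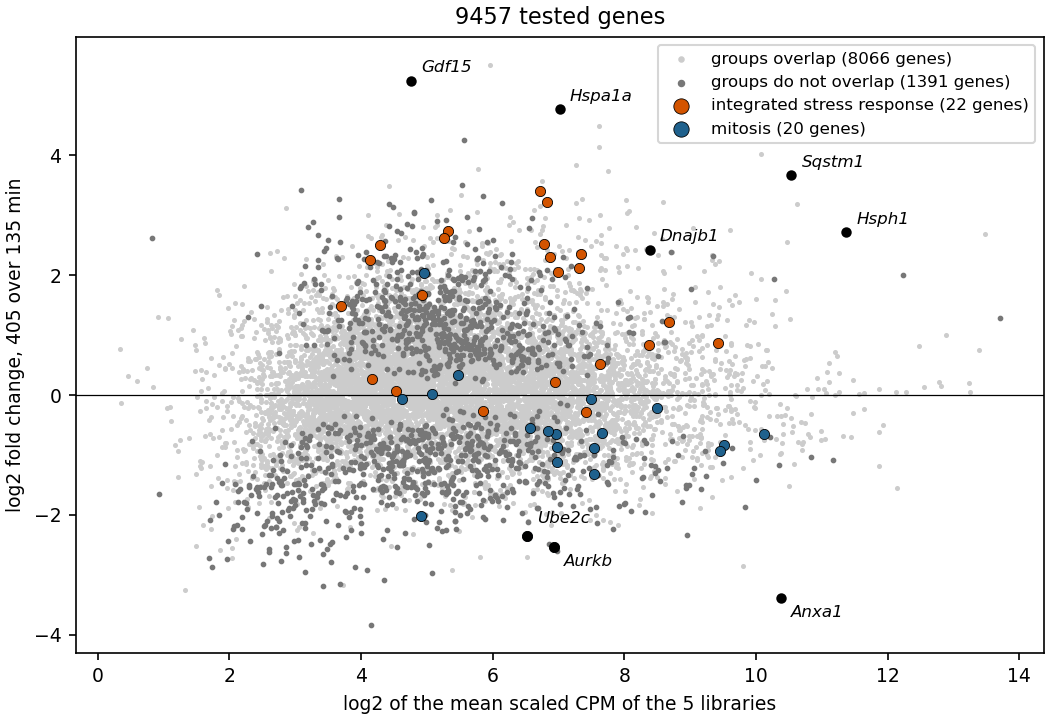
Log2 fold change of 405 over 135 min (vertical axis) against the log2 of the mean CPM in the 5 libraries (horizontal axis) for the 9457 tested genes. Dark grey points are the genes whose groups do not overlap, orange and blue points are the lists of the integrated stress response and of mitosis, and named genes are in black. Most orange points lie above 0 and most blue points just under it.

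The markers of the second step had high levels in 2 of the 3 libraries at 405 min. Sqstm1, which encodes the autophagy receptor p62 that binds ubiquitinated proteins, was at 162 and 209.5 CPM at 135 min and at 5528, 74.1 and 1456 CPM at 405 min in replicates 1, 3 and 4. Its log2 fold change was 3.66 ± 1.58 (SE), and 4.19 without replicate 3 at 405 min. The groups overlapped because of replicate 3 at 405 min, which was under both 135 min libraries, while the other 2 were far above them. Hsph1 was at 285 and 935 CPM at 135 min and at 5725, 529 and 5767 CPM at 405 min, a log2 fold change of 2.72 ± 1.34. Dnajb1, an Hsp40 that delivers substrates to Hsp70, was at 91.2 and 92.9 CPM and then at 884, 87.5 and 512 CPM, a log2 fold change of 2.43 ± 1.02. In both genes replicate 3 at 405 min lay within or under the range at 135 min, so that the groups overlapped. Without it, the log2 fold changes were 3.20 for Hsph1 and 2.85 for Dnajb1. At 45 min, the 2 libraries with a ribosomal protein share over 4% had 258 and 83.9 CPM of Sqstm1, 372 and 121 CPM of Hsph1, and 19.1 and 22.5 CPM of Dnajb1.

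Of the 9 tested Hsp70 and Hsp110 genes, 2 did not overlap between groups and were higher at 405 min, none was lower, and the median log2 fold change was 0.98. Hspa1a was at 7.02 and 8.43 CPM at 135 min and at 547, 16.2 and 68.2 CPM at 405 min, a log2 fold change of 4.77 ± 1.44 that was 4.18 after correction for GC content. All 3 libraries at 405 min were higher, replicate 3 by the least. Outside the threshold, replicate 4 at 135 min had 33.2 CPM of Hspa1a from 33 fragments, above replicate 3 at 405 min, and replicate 3 at 135 min had 0. The adjacent gene Hspa1b, which encodes a nearly identical protein, was at 2686 and 734 CPM and then at 3144, 9873 and 7545 CPM, a log2 fold change of 2.0 ± 1.22. Here replicate 3 was the highest library, and the groups overlapped after correction for GC content. Since the pair share most of their sequence, the division of fragments between them is uncertain. Hspa8, the constitutive Hsp70, was at 1515 and 3888 CPM at 135 min and at 26556, 1964 and 23429 CPM at 405 min, with replicate 3 inside the 135 min range.

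The Hsp90 system was similar in that all 11 tested members had a positive log2 fold change, with a median of 1.11, yet only Hsp90aa1 did not overlap. Hsp90aa1, the inducible Hsp90, was at 9692 and 4598 CPM at 135 min and at 13026, 14181 and 25141 CPM at 405 min. The 3 libraries at 405 min were all higher, and replicate 3 was like the others. Its log2 fold change was 1.29 ± 1.29. Ahsa1, which stimulates the Hsp90 ATPase, was at 10.2 and 42.4 CPM and then at 488, 22.6 and 253 CPM, with the third replicate again inside the 135 min range. None of the 13 tested Hsp40 genes failed to overlap, and their median log2 fold change was 0.84. Among 9 small heat shock proteins and Bag co-chaperones, 2 were higher without overlap, with a list median of 0.44. One was Cryab, a small heat shock protein that holds unfolded proteins, at 239 and 146 CPM and then at 1210.2, 347 and 1303 CPM. Bag3, which links Hsp70 clients to autophagy, was at 117 and 106 CPM at 135 min and at 442, 55.8 and 273 CPM at 405 min and overlapped through replicate 3. The CCT chaperonin (8 genes, median 0.63) and 10 mitochondrial chaperones and proteases (median 0.73) had no gene without overlap. Without replicate 3 at 405 min, 6 of 13 Hsp40 genes and 9 of 11 Hsp90 genes were higher without overlap and none lower. Of the CCT list 6 of 8 were then higher, and of the mitochondrial list 8 of 10, again with none lower. Small heat shock proteins and Bag then had 5 of 9 higher and 1 lower. Among all 9711 genes then tested, 25.6% were higher and 26.5% lower. Hsf1 itself was among the genes that did not overlap, at 17.5 and 11.1 CPM and then at 64.8, 18.4 and 24.5 CPM. Its groups were apart by little and overlapped after correction for GC content.

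**Figure D3:**
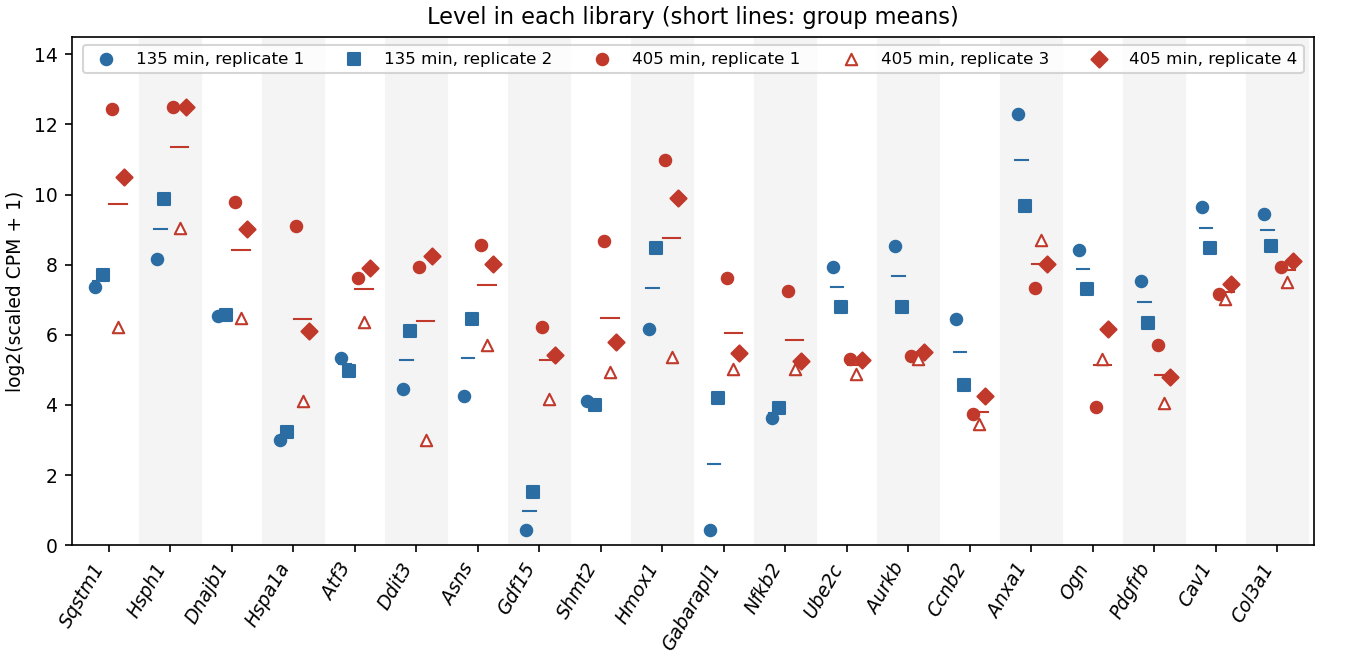
Level of 20 named genes in each compared library, as log2(CPM + 1) on the vertical axis, with 135 min libraries in blue, 405 min libraries in red and replicate 3 at 405 min as open triangles; short lines are group means. For Sqstm1, Hsph1, Dnajb1, Ddit3 and Hmox1 the open triangle lies under the higher blue point, and for Ube2c, Aurkb and Cav1 all red points lie under both blue points.

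The integrated stress response had the highest median of any list, 1.86 on the log2 scale over 22 tested genes, beside 0.13 for all genes. Without replicate 2 at 135 min it was 3.16, beside 0.36 for all genes, and without replicate 3 at 405 min 2.22, beside -0.14. Of the 22, 6 were higher without overlap (27.3%, beside 6.95% of all genes), none was lower without overlap, and 20 had a positive fold change. The 6 were Atf3, Slc7a5, Phgdh, Shmt2, Stc2 and Cth. Atf3 was at 39.6 and 30.4 CPM at 135 min and at 196, 81.9 and 237 CPM at 405 min, a log2 fold change of 2.30 ± 0.75. It was higher in all 3 libraries, with replicate 3 the lowest of them. Shmt2, the mitochondrial enzyme that makes glycine from serine, was at 16.1 and 15 CPM and then at 410.1, 29.6 and 54.9 CPM, a log2 fold change of 3.41 ± 1.18. Phgdh, the first enzyme of serine synthesis, was at 11.2 and 45.9 CPM and then at 312, 61.4 and 119 CPM. Slc7a5, a subunit of a transporter for large neutral amino acids, was at 13.3 and 79.6 CPM and then at 444, 81.2 and 189.6 CPM, so that its lowest 405 min library was only just above the 135 min libraries. Cth, which makes cysteine from cystathionine, was at 1.40 and 9.25 CPM and then at 27.4, 23.3 and 26.5 CPM, with the 3 later libraries close together.

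Other members were high in replicates 1 and 4 at 405 min only. Ddit3, which encodes the transcription factor CHOP, was at 21.1 and 67.4 CPM at 135 min and at 242, 7.06 and 301 CPM at 405 min. Asns was at 17.9 and 86.6 CPM and then at 375, 50.8 and 259 CPM, and Ppp1r15a, the phosphatase subunit that reverses eIF2 phosphorylation, at 9.82 and 28.2 CPM and then at 337, 9.18 and 185 CPM. In each, replicate 3 lay within or under the 135 min range. Nupr1 was the same, at 6.32 and 12.5 CPM and then at 81.8, 7.76 and 83.2 CPM. Trib3 and Sesn2 were high in replicate 1 at 405 min alone, Trib3 at 0.351 and 9.87 CPM and then 68.9, 12.7 and 6.29 CPM, and Sesn2 at 0.702 and 17.3 CPM and then 155, 9.88 and 16.4 CPM. Not every target was higher. Chac1, a glutathione-degrading enzyme, was at 152 and 73.0 CPM and then at 181, 57.2 and 153 CPM, and Ddit4, an inhibitor of mTORC1 signalling, at 222 and 161 CPM and then at 119, 80.5 and 270.0 CPM. Atf4 itself, which is mainly controlled in translation, was at 191 and 261 CPM and then at 590.2, 137 and 484 CPM. Of the 22, 4 had 1 to 3 fragments in replicate 1 at 135 min.

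Genes were ranked by unadjusted p if they did not overlap and had a mean of at least 10 CPM in the higher group. Left out of that ranking were genes with numbered Gm, Rik, LOC, Mir, Snor or Rn names. Gdf15, a secreted stress factor, had the smallest p in it. It was at 0.351 and 1.85 CPM at 135 min, from 1 and 9 fragments, and at 74.0, 16.9 and 41.6 CPM at 405 min, a log2 fold change of 5.24 ± 1.22. It was the 1 gene that passed with DESeq2 in place of edgeR (adjusted p 0.00846). All 3 later libraries were higher, but replicate 4 at 135 min, outside the threshold, had 20.1 CPM from 20 fragments. Slpi, a secreted protease inhibitor, was at 5.96 and 6.79 CPM and then at 129, 28.2 and 60.6 CPM, a log2 fold change of 3.51 ± 0.90. Its groups were apart as well, with replicate 3 lowest at 405 min. The other 10 genes that filled the list of 12 with the smallest p, none of which passed edgeR's test, were Hspa1a, Atf3, Wars, Cmip, Shmt2, Ddx39b, Pdlim1, Nfkb2, Slco2a1 and Rps14, the last a ribosomal protein gene of the kind that chose the libraries. In 11 of these 12, replicate 1 at 405 min was the highest of the 5 libraries.

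Of 19 tested aminoacyl-tRNA synthetases of the cytosol, which charge tRNAs and include Atf4 targets, 18 had a positive fold change and the median was 1.44, but only 2 did not overlap (10.5%, beside 6.95% of all genes). Wars was at 7.72 and 11.1 CPM at 135 min and at 106, 28.2 and 35.5 CPM at 405 min, a log2 fold change of 2.59 ± 0.89, and Vars at 13.0 and 32.7 CPM and then at 208, 40.9 and 53.7 CPM. Both were highest in replicate 1 at 405 min. Sars was at 1.75 and 60.7 CPM and then at 512, 29.6 and 189.6 CPM, with replicate 3 between the 135 min libraries. Nars and Rars, the members with the most fragments, had log2 fold changes of 0.25 ± 0.82 and 1.27 ± 1.12. The 12 glycolysis genes differed among themselves: Gapdh was at 151 and 272 CPM and then at 1212, 344 and 602 CPM and Ldha at 722 and 376 CPM and then at 197, 136 and 335 CPM, both without overlap but in opposite directions.

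Of 19 Nrf2 targets, 3 were higher without overlap (15.8%), and the median of 1.24 became 0.85 after correction for GC content. The 3 were Slc7a11, the cystine transporter, at 15.1 and 64.8 CPM at 135 min and 249.9, 109 and 231 CPM at 405 min, with Abcc1 and Trim16. Hmox1, which degrades heme, was at 71.2 and 357 CPM and then at 2028, 40.2 and 956 CPM, and Srxn1, which repairs peroxiredoxins, at 25.3 and 70.5 CPM and then at 683, 31.8 and 281 CPM. In both, replicate 3 lay under or inside the 135 min range. Ftl1, the ferritin light chain, was at 52.3 and 160.2 CPM and then at 4364, 50.8 and 759 CPM, the same pattern. Gclm, the modifier subunit of glutathione synthesis, went the other way, at 1949 and 344 CPM at 135 min and 285, 643 and 359 CPM at 405 min, a log2 fold change of -1.42 ± 0.93 that rested on replicate 1 at 135 min and was 0.37 without it. Of other members, Fth1 had 0.14 ± 1.12 and Txnrd1 -0.39 ± 0.90, as log2 fold changes.

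Autophagy and protein disposal genes were mixed. Of 17 autophagy genes, 4 were higher without overlap and 1 lower, with a median of 1.18. Gabarapl1, a conjugate of autophagosome membranes, was at 0.351 and 17.5 CPM at 135 min and at 196, 31.8 and 43.6 CPM at 405 min. Its level in replicate 1 at 135 min came from 1 fragment. Ulk1, the kinase that starts autophagy, was at 13.0 and 12.7 CPM and then at 79.7, 13.4 and 27.3 CPM, so that replicate 3 was barely above the earlier libraries, and Tfe3 and Nbr1 were the other 2. Atg5 was lower without overlap, at 132 and 47.7 CPM and then at 37.3, 43.8 and 37.7 CPM.

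Of 10 genes of the p97 segregase and Nfe2l1, 3 were higher without overlap and Ngly1 was lower, with a median of 1.13. Nfe2l1, the transcription factor that drives proteasome genes when proteasomes are blocked, was at 22.5 and 73.2 CPM and then at 402, 75.5 and 159.8 CPM. The Nfe2l1 groups were apart by little and overlapped after correction for GC content. Vcp, the segregase itself, was at 109.8 and 261 CPM and then at 958, 71.3 and 520.4 CPM and overlapped through replicate 3. Of the 38 proteasome genes none was higher without overlap and 1 was lower, while the median log2 fold change was 0.68. Their summed level was 7824 and 5606 CPM at 135 min and 8365, 3801 and 12450.0 CPM at 405 min. Replicates 1 and 4 at 405 min were the highest and replicate 3 the lowest of the 5. Without replicate 3, 24 of the 38 were higher in both remaining libraries and 1 lower, beside 25.6% higher and 26.5% lower among all 9711 genes then tested. Ubb, a polyubiquitin gene, was at 304 and 421 CPM and then at 2674, 382 and 3329 CPM, and Zfand2a, which binds the proteasome under stress, at 188 and 242 CPM and then at 1255, 203 and 798 CPM. Both overlapped through replicate 3.

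The NF-kappaB list had 4 of 15 genes higher without overlap (26.7%) and none lower, with a median of 0.59 that was 0.13 without replicate 3 at 405 min. The 4 included 3 of the factors themselves. Nfkb2 was at 11.2 and 14.2 CPM at 135 min and at 150.1, 31.8 and 37.4 CPM at 405 min, Rela at 1.40 and 14.2 CPM and then at 112, 33.2 and 34.7 CPM, and Relb at 0.351 and 10.7 CPM and then at 51.3, 43.8 and 15.7 CPM. The fourth was the adhesion gene Vcam1. Outside the threshold, replicate 4 at 135 min had 61.3 CPM of Nfkb2 from 61 fragments, above replicates 3 and 4 at 405 min, and replicate 3 at 135 min had 0. Of target genes, Ptgs2, a prostaglandin synthase, was at 152 and 222 CPM and then at 1405, 196 and 1231 CPM, and the chemokine gene Ccl2 at 4539 and 573 CPM and then at 869, 2776 and 1427 CPM, each overlapping. Of 17 p53 targets 3 were higher without overlap (median 0.63), Gdf15 among them. Cdkn1a, an inhibitor of cyclin-dependent kinases, was at 22.5 and 78.3 CPM and then at 375, 14.1 and 219 CPM, and Mdm2, the ubiquitin ligase of p53, at 1512 and 1181 CPM and then at 969.9, 604 and 1611 CPM.

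In the secretory pathway, 2 of 22 ER chaperone and degradation genes were higher without overlap (9.09%), and the median was 0.71. Hyou1, an ER relative of Hsp110, was one of them, at 28.1 and 40.1 CPM and then at 198, 48.0 and 111 CPM. Hspa5, the ER Hsp70, was at 370.2 and 459 CPM at 135 min and at 1537, 224 and 1193 CPM at 405 min and overlapped. Ribosomal protein genes, which chose the libraries, had 3 of 84 higher and none lower without overlap (median 0.47). Of the other lists, those that were higher without overlap in over 1 gene were ribosome biogenesis (4 of 19, median 0.95), translation factors (6 of 60, with 1 lower, median 0.58), DNA replication and G1/S (3 of 21, median 0.78), immediate early factors (3 of 16, median 0.42), ubiquitin-specific proteases (3 of 36, with 1 lower, median 0.45) and glycolysis (2 of 12, with 1 lower, median 1.05). Sterol synthesis had 1 of 17 (median 0.95), nuclear noncoding RNAs 1 of 8 (median 1.07), the Bcl2 family 1 of 11 (median 0.64, but -0.21 without replicate 3 at 405 min and 2.54 without replicate 2 at 135 min) and splicing factors 1 of 28, with 2 lower (median 0.07). Ubiquitin and AN1 zinc finger genes had none higher and 1 of 8 lower (median 0.86), ubiquitin-conjugating enzymes none and 1 of 28 (median 0.18), and metallothionein and zinc response genes (4, median -0.38), MAP kinase phosphatases (7, median 0.02) and the 8 tested replication-dependent histones (median 0.98) had none in either direction. Other medians also moved with 1 library. Without replicate 2 at 135 min they were 1.96 for autophagy, 1.89 for glycolysis, 1.66 for histones, 1.34 for Hsp40 genes, 0.77 for immediate early factors and -0.12 for splicing factors. Without replicate 3 at 405 min they were 1.08 for the proteasome, 1.09 for ER genes, 0.99 for SRF and YAP targets, 0.74 for small heat shock proteins and Bag, 0.35 for ubiquitin-conjugating enzymes and 0.36 for collagens and matrix.

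Most genes of mitosis had lower levels in the 405 min libraries, although none passed the test. Of 20 tested, 7 were lower without overlap (35%, beside 7.76% of all genes), none was higher without overlap, 17 had a negative fold change and the median was -0.64. In these bulk libraries fewer cells in mitosis and less mitotic RNA per cell cannot be told apart. Ube2c was at 245 and 109.6 CPM at 135 min and at 38.3, 28.2 and 37.7 CPM at 405 min, a log2 fold change of -2.35 ± 0.65, and Aurkb, the kinase that corrects chromosome attachments, at 372 and 110.2 CPM and then at 41.1, 38.8 and 44.9 CPM, a log2 fold change of -2.53 ± 0.70. All 3 later libraries were low and close to each other, replicate 3 included, and the spread lay in the 135 min libraries. Ccnb2, a mitotic cyclin, was at 87.0 and 22.8 CPM and then at 12.3, 9.88 and 18.2 CPM. Cdc20 was at 130.2 and 105 CPM and then at 101, 47.3 and 92.7 CPM, Kif11, a spindle motor, at 211 and 161 CPM and then at 96.1, 53.6 and 106 CPM, and Cenpf, a kinetochore protein, at 1124 and 842 CPM and then at 299.9, 455 and 781 CPM. In Cdc20 and Cenpf the groups were apart by little. The seventh was Hmmr. Mki67, a proliferation marker, was at 1384 and 1456 CPM and then at 637, 657 and 1434 CPM, with replicate 4 at the level of 135 min, and Cenpe overlapped in the same way. Aurka, a spindle pole kinase, had the opposite sign, at 2.46 and 19.1 CPM and then at 68.4, 17.6 and 47.7 CPM. Without replicate 3 at 405 min the list's median was -0.60, beside -0.14 for all genes. Then 7 members were lower without overlap and 1 higher, beside 26.5% lower and 25.6% higher among all genes. With GC content correction the list's median was -0.60, and 7 members were again lower without overlap and none higher. Among the 8762 genes with a GC value, 8.42% were then lower and 7.18% higher.

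Among the 12 genes of smallest p on the lower side, none of which passed the test, were Ube2c, Aurkb, Mcee, Rbbp9, Ogn, Anxa1, Vwa5a, Akr1c14, Dync2li1, Tmem179b, Coq2 and Hmgb3. Anxa1, a calcium-dependent membrane-binding protein, had the widest gap in CPM of the 12, at 5003 and 809 CPM at 135 min and 159, 414 and 260.4 CPM at 405 min, a log2 fold change of -3.39 ± 1.05. Replicate 2 at 135 min lay closer to replicate 3 at 405 min than to its own partner. Ogn, a small proteoglycan of the matrix, was at 344 and 158 CPM and then at 14.2, 38.8 and 70.9 CPM. Mcee, the epimerase of methylmalonyl-CoA, was at 69.8 and 10.9 CPM and then at 2.19, 2.12 and 3.98 CPM. In all 12 genes replicate 1 at 135 min was the highest of the 5 libraries.

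Several fibroblast and matrix genes were also lower at 405 min. Of 8 fibroblast markers, 4 were lower without overlap (50%) and none higher, with a median of -0.66. Without replicate 3 at 405 min the median was -0.33, with 4 lower and 2 higher beside 26.5% and 25.6% of all genes, and with all 8 libraries it was -0.05 over 6 genes. Pdgfrb, the receptor for platelet-derived growth factor, was at 185 and 79.8 CPM at 135 min and at 50.8, 15.5 and 27.0 CPM at 405 min, a log2 fold change of -2.08 ± 0.73. Col3a1 was at 693 and 366 CPM and then at 243, 182 and 277 CPM, and S100a4 at 154 and 290.3 CPM and then at 114, 20.5 and 127 CPM. Replicate 3 at 405 min was the lowest library for Pdgfrb and for Col1a2, the latter at 1465 and 1625 CPM and then at 1428, 239 and 1188 CPM. Vim and Fn1 overlapped, and Fn1 was at 3345 and 4445 CPM and then at 10630.0, 1372 and 8587 CPM. Of 19 collagen and matrix genes, 4 were lower without overlap (21.1%), with a median of 0.12, and Dcn, the proteoglycan decorin, was at 589 and 124 CPM and then at 52.2, 93.2 and 99.7 CPM. Of 5 caveolin and cavin genes 1 was lower (median -0.10), Cav1, the coat protein of caveolae, at 792 and 357 CPM and then at 144, 128 and 172 CPM. Of 17 targets of the factors SRF and YAP 2 were lower (median 0.56), one of them Actg1 at 2603 and 2652 CPM and then at 1326, 373 and 2133 CPM. Of the same 17, 12 had a positive fold change, among them Actb, at 118 and 675 CPM and then at 2168, 52.9 and 1281 CPM, with overlap.

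Of 58 tested subunits of oxidative phosphorylation, 10 were lower (17.2%) and 2 higher (3.45%) without overlap, and the median was -0.17. The 10 were mostly subunits of complex I, namely Ndufa4, Ndufa6, Ndufb2, Ndufb4, Ndufb5, Ndufb6, Ndufc1 and Ndufs1, with Uqcrh and Atp5l. Without replicate 3 at 405 min the median was 0.22, and 27 members were higher and 15 lower in both remaining libraries, beside 25.6% and 26.5% of all genes, so the direction of the list turned with this library.

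The GC content of transcripts moved with the comparison. Over the 8762 tested genes with a transcript in the annotation (92.7%), the median log2 fold change was -0.21 in the 1753 genes of lowest GC content and 0.60 in the 1753 of highest GC content. In replicate 1 at 135 min the median deviation from a gene's own mean went from 0.33 to -0.52 between these bins, and in replicate 1 at 405 min it went up from -0.41 to 0.67. Replicates 2 at 135 min, 3 and 4 at 405 min covered less. Genes higher without overlap had a median GC content of 51.5%, those lower 46.1% and the rest 49%. After a correction of each library for GC content, no gene passed (0 of 8762, with 70 higher and 98 lower before adjustment), and the list medians became 1.64 for the integrated stress response, 1.30 for aminoacyl-tRNA synthetases and -0.95 for fibroblast markers. The members of the integrated stress response have a median GC content of 55.3% and those of mitosis 47.3%. The bin that holds the mitosis median, near that bin's lower edge of 47.17%, had a median log2 fold change of 0.16. In the bin just below it the median was -0.07. The bin of highest GC content, which holds the integrated stress response median, had 0.60. Whether GC content accounts for either list was not tested.

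**Figure D4:**
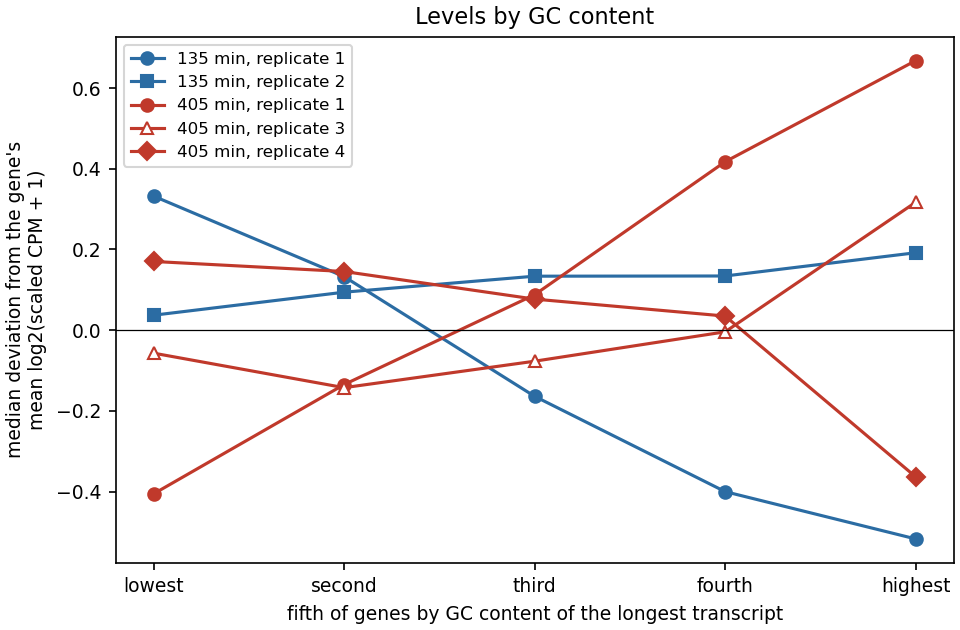
Median deviation of genes from their own mean log2(CPM + 1) over the 5 libraries (vertical axis) in 5 equal bins of the 8762 genes by GC content of the longest transcript (horizontal axis), one line per library. Replicate 1 at 135 min goes from 0.33 to -0.52 and replicate 1 at 405 min climbs from -0.41 to 0.67, while the other 3 lines stay between -0.36 and 0.32.

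In the check with all 4 libraries at each time, 6271 genes had a fragment in every library. No gene passed (0% higher and 0% lower, edgeR's quasi-likelihood test, smallest adjusted p 0.997), 49 higher and 39 lower genes were under 0.05 before adjustment, and the coefficient of variation was 89.3%. All 4 later libraries lay above all 4 earlier ones in 33 genes (0.526%) and below in 37 genes (0.59%). Sqstm1, Hsph1 and Dnajb1 had log2 fold changes of 4.05, 3.10 and 2.54, each with overlap. The 3 libraries outside the threshold had low levels of these genes at both times: Sqstm1 was at 8.50 and 23.1 CPM at 135 min and at 40.9 CPM at 405 min, Hsph1 at 85.0 and 50.3 CPM and then at 185 CPM, and Dnajb1 at 32.6 and 29.2 CPM and then at 44.4 CPM. Hspa1a, Gdf15, Atf3, Ube2c and Aurkb were absent from this fit because each had no fragment in 1 of the earlier libraries. Of the genes named above, only Hmgb3, a chromatin protein, had all 4 later libraries below all 4 earlier ones, with a log2 fold change of -2.03. The median log2 fold change was 1.34 over the 10 testable integrated stress response genes, 1.58 over 13 aminoacyl-tRNA synthetases and -0.43 over 13 mitosis genes, beside -0.11 for all genes. The 6 testable Hsp70 and Hsp110 genes had 1.85, so the integrated stress response was not the highest list in this check.

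Calls appeared when the fit was limited to libraries with a receptor share under 0.5%, replicates 1 and 4 at 405 min and replicate 1 at 135 min. Then 952 of 9712 genes were higher (9.8%) and 416 lower (4.28%) by edgeR's quasi-likelihood test after adjustment. The 135 min group is here 1 library, assumed to vary like the 405 min pair, and 351 of the 952 higher genes (36.9%) had 1 to 3 fragments in it, against none of the 416 lower genes. Replicate 2 at 135 min had no part in that fit, but the genes called were picked by the same 405 min libraries it would be set against. Its place beside those libraries was not compared with a share over all genes, so no conclusion is drawn from it. In that fit 12 of 22 integrated stress response genes and 8 of 19 aminoacyl-tRNA synthetases were higher and none lower, and of 20 mitosis genes 3 were lower and 1 higher. Sqstm1, Hsph1 and Dnajb1 did not pass in it, with log2 fold changes of 4.32, 4.28 and 2.86.

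Some genes were listed at 0 fragments throughout one time. Filip1l, with 420 and 704 fragments in the compared 135 min libraries, and Arhgap21, with 353 and 675, were listed at 0 in all 4 libraries at 405 min, as was the ribosomal RNA precursor Rn45s with 2829 and 17681. An exact 0 at such depth can be a failed estimate, which was not tested, so no fold is given. On the other side, 2 genes, Raver1-fdx1l and Scgb1a1, were listed at 0 in both compared 135 min libraries and had fragments in all 3 at 405 min. In replicates 1, 3 and 4 at 405 min, Raver1-fdx1l had 60, 30 and 2 fragments and Scgb1a1 only 4, 3 and 7. Outside the threshold, replicate 3 at 135 min had 32 fragments of Raver1-fdx1l, at a CPM above all 405 min libraries.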

How the data were processed

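RNA was extracted from NIH3T3 cells with a QIAGEN column kit and made into libraries with a NuGEN Encore kit, and the study's methods also describe oligo(dT) selection. The authors mapped reads to mm9 with RefSeq annotation on DNAnexus according to those methods, whereas the submitters' processing notes name mm 10, so the build is unsettled. The aligner is not given in the sources used here. The authors deposited 1 table per library of 23356 genes with raw fragments (estimated counts), scaled fragments (a signal) and FPKM. The first column was used, rounded to whole counts (97.9 to 99.4% of values were whole). The scaled signal and FPKM values the authors computed were not used. Symbols turned into dates, at most 27 in a table, were restored from the row order.

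Genes with at least 1 count in every library of the fit were tested with edgeR 4.0.16 (R 4.3.3, TMM factors, quasi-likelihood F test, Benjamini-Hochberg adjustment over all tested genes, threshold 0.05). For the SE, each log2 fold change was divided by the root of its F statistic. Groups were said not to overlap when all CPM values of one lay above those of the other. The libraries, the gene lists and the named genes were chosen with earlier results of these data known. Named were the markers and known stress genes, the 12 genes of smallest p on each side among those that do not overlap with a mean of at least 10 CPM (since none passed), up to 2 abundant members per list, genes at 0 throughout one time, and further list members chosen after their values were seen. Genes with numbered Gm, Rik, LOC, Mir, Snor or Rn names were left out of the ranking by p. The motifs TGATGNAA, CCAAT and TTTGAA, the GC content correction (lowess per library on the longest GENCODE M1 transcript) and a fit of the libraries under the threshold were added after seeing the data. One gene listed at 0 throughout a time is not reported here. The main fit was run on simulated data, where recovery of changed genes was required only at a spread far below that of these libraries. That check does not bear on the absence of calls in the 5 libraries. Alternatives used limma 3.58.1 and DESeq2 1.42.0. Depth was 570323 to 19930375 fragments per library. Intervals from counting were not needed, and fragments are not independent molecules.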

Additional observations from a re-analysis of the deposited data

Results flagged for a closer look

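Among 38 groups of 4 libraries that were examined (library measures and the named stress genes at 135 and at 405 min), 1 had a library far from the other 3. It was Atf3 at 135 min, which was at 0 log2(CPM + 1) in replicate 3 and between 4.87 and 5.35 in the other 3 libraries. The gap took 0.91 of the group's range, above Dixon's critical value for 4 samples at the 95% level, and about 1 group in 20 is set apart in this way by chance. Replicate 3 at 135 min was the shallowest library, with 570323 fragments, and had no fragment in 47.5% of the genes in the table. It was outside the ribosomal protein threshold and had no part in the comparison of 5 libraries.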

How the results depend on the processing

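The count of 0 genes past the threshold in the 5 libraries held with RLE factors, upper-quartile factors, edgeR's exact test, limma-voom, thinning to the shallowest library, the 45 min libraries in the fit, the GC content correction and the receptor share as a covariate. With filterByExpr, 2 genes were higher and 4 lower, with no filter 1 and 4, and with DESeq2 1 was higher (Gdf15) and none lower. The lower genes of the first 2 settings included Arhgap21, Filip1l and Rn45s, listed at 0 in all 405 min libraries, which can be failed estimates. Leaving out each replicate gave 0 to 1 genes higher and 0 lower (0 in both directions with all 8 libraries), the 1 being Rmrp without replicate 4 at 405 min. Before adjustment, 699 higher and 267 lower genes were under 0.05 without replicate 2 at 135 min, 599 and 452 without replicate 3 at 405 min, and 7 and 12 without replicate 1 at 405 min, 302 and 64 without replicate 4 at 405 min, and 8 and 1 without replicate 1 at 135 min. Limited to a receptor share under 0.5%, 952 were higher and 416 lower, and 1410 and 687 with GC content correction as well; each fit has 1 library at 135 min. Genes without overlap split into 482 higher and 982 lower with upper-quartile factors. With all 8 libraries, no filter gave 2 higher and 4 lower, the lower again including Arhgap21, Filip1l and Rn45s, and filterByExpr 1 lower (Arhgap21). The causes were not tested.

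Same-numbered libraries at 135 and 405 min had deviations correlated at 0.162, -0.658, 0.211 and -0.536 for numbers 1 to 4, and each correlated best with another number, so the numbers were not taken as pairs. With the replicate block in the fit of 8 libraries, 0 genes passed in either direction (15 higher and 1 lower before adjustment), and with the replicate block and GC content correction also 0. Of 99 named genes, 89 kept their sign in every alternative. Leaving out each replicate, the log2 fold change ranged from -1.43 to 1.60 for Ccl2, -0.22 to 0.99 for Chac1, -0.85 to 0.14 for Ddit4, -0.23 to 0.34 for Fth1, -2.18 to 0.37 for Gclm, -0.68 to 0.00 for Mdm2, -0.30 to 1.26 for Nars and -0.88 to 0.49 for Txnrd1. The other reversed values were, with no filter, 0.25 for Ddit4 and 0.16 for Mdm2; with upper-quartile factors and limma-voom, -0.03 and -0.00 for Fth1; with GC content correction, -0.16 for Chac1 and -0.07 for Fth1; with a receptor share under 0.5%, -0.28 for Nars, and with GC content correction as well -0.41 for Chac1, -0.01 for Fth1 and -0.11 for Nars; with the receptor share as a covariate, -0.09 for Chac1, -0.25 for Fth1 and -0.24 for Rars; and with all 8 libraries, 0.09 for Mdm2, 0.01 for Txnrd1 and -0.11 for Ulk1. The causes were not tested.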
